A study of Schizosaccharomyces pombe with 26 samples.

Results

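Binding of the Mediator subunit Med15 over coding regions was measured in *Schizosaccharomyces pombe*, the fission yeast, on spotted arrays of open reading frames (ORF arrays). The samples described here are all 3 that the labels name as Med15-myc binding on ORF arrays, out of 26 samples in the series. They come from a strain that carries a myc-tagged Med15, grown to mid-log phase in the rich medium YES and fixed with formaldehyde. Sonicated chromatin was precipitated with an antibody against c-myc (chromatin immunoprecipitation, ChIP), and the DNA was amplified. It was hybridised in 1 dye together with input DNA of the same preparation in the other dye, with the ChIP DNA in Cy3 for replicates 1 and 3 and in Cy5 for replicate 2. The series compares Med15 binding, histone H3 and RNA in wildtype, Δmed15 and Δhrp1 strains. For comparison, histone H3 was precipitated in a strain lacking med15 (Δmed15, 2 ORF-array samples) and in a strain lacking hrp1 (Δhrp1, 3 samples), grown and processed in the same way. The same Med15-myc strain was also hybridised to arrays of intergenic regions (IGR arrays, 3 samples). The labels list no untagged strain on arrays, so signal that depends on Med15 and signal that any anti-myc precipitation gives cannot be told apart. Wildtype H3 samples are not used here because their input channel was not analysed here. The labels call the replicates independent experiments without naming separate cultures. A p-value here thus concerns hybridised samples, and the number of arrays limits the precision.

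Mediator is a large complex that passes signals from DNA-bound activators to RNA polymerase II. It is built of head, middle, tail and kinase modules, and Med15 belongs to the tail, the module that activators contact. Hrp1 belongs to the CHD1 family of chromatin remodellers, ATPases that space and evict nucleosomes, and the title of the series places it in a complex with Med15. Mediator is best known from regulatory DNA upstream of genes. An ORF feature therefore reports on the body of a gene, and because sonicated fragments can reach past it, also on DNA next to it.

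Each value below is the log2 ratio of ChIP over input signal of a feature, with the median feature of the array set to 0, so it says how a feature stands against the typical coding region and not whether Med15 is present there. Spots of 1 name were averaged and control spots left out, which gave 4887 features on 9796 spots of an array pair. The median ChIP signal was 12163 scanner units over a local background of 93 in replicate 1, 11203 over 4984 in replicate 2 and 6322 over 357 in replicate 3. The input signal was 10770 over 2157, 6360 over 147 and 15414 over 6525. The Cy5 channel thus carried the higher local background on each array, whichever DNA it held. The scanner software flagged 3.24%, 26.9% and 36.2% of the feature spots in turn. Duplicate spots of a feature gave ratios that correlated with r = 0.927, 0.883 and 0.877.

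The 3 arrays ranked coding regions differently as long as the signals were used as scanned. Across features, replicates 1 and 3, which share the dye orientation, correlated with Pearson r = 0.24 (Spearman rank correlation 0.33). Replicate 2 correlated negatively with both, with r = −0.20 (rank correlation −0.02) against replicate 1 and r = −0.24 (rank correlation −0.40) against replicate 3. After background correction of both channels (normexp with an offset of 50), r was 0.41 (rank correlation 0.37) for replicates 1 and 2, 0.41 (0.34) for replicates 1 and 3 and 0.11 (0.04) for replicates 2 and 3. These correlations are across features of 3 arrays that share a probe set, and are given as a description.

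**Figure D1:**
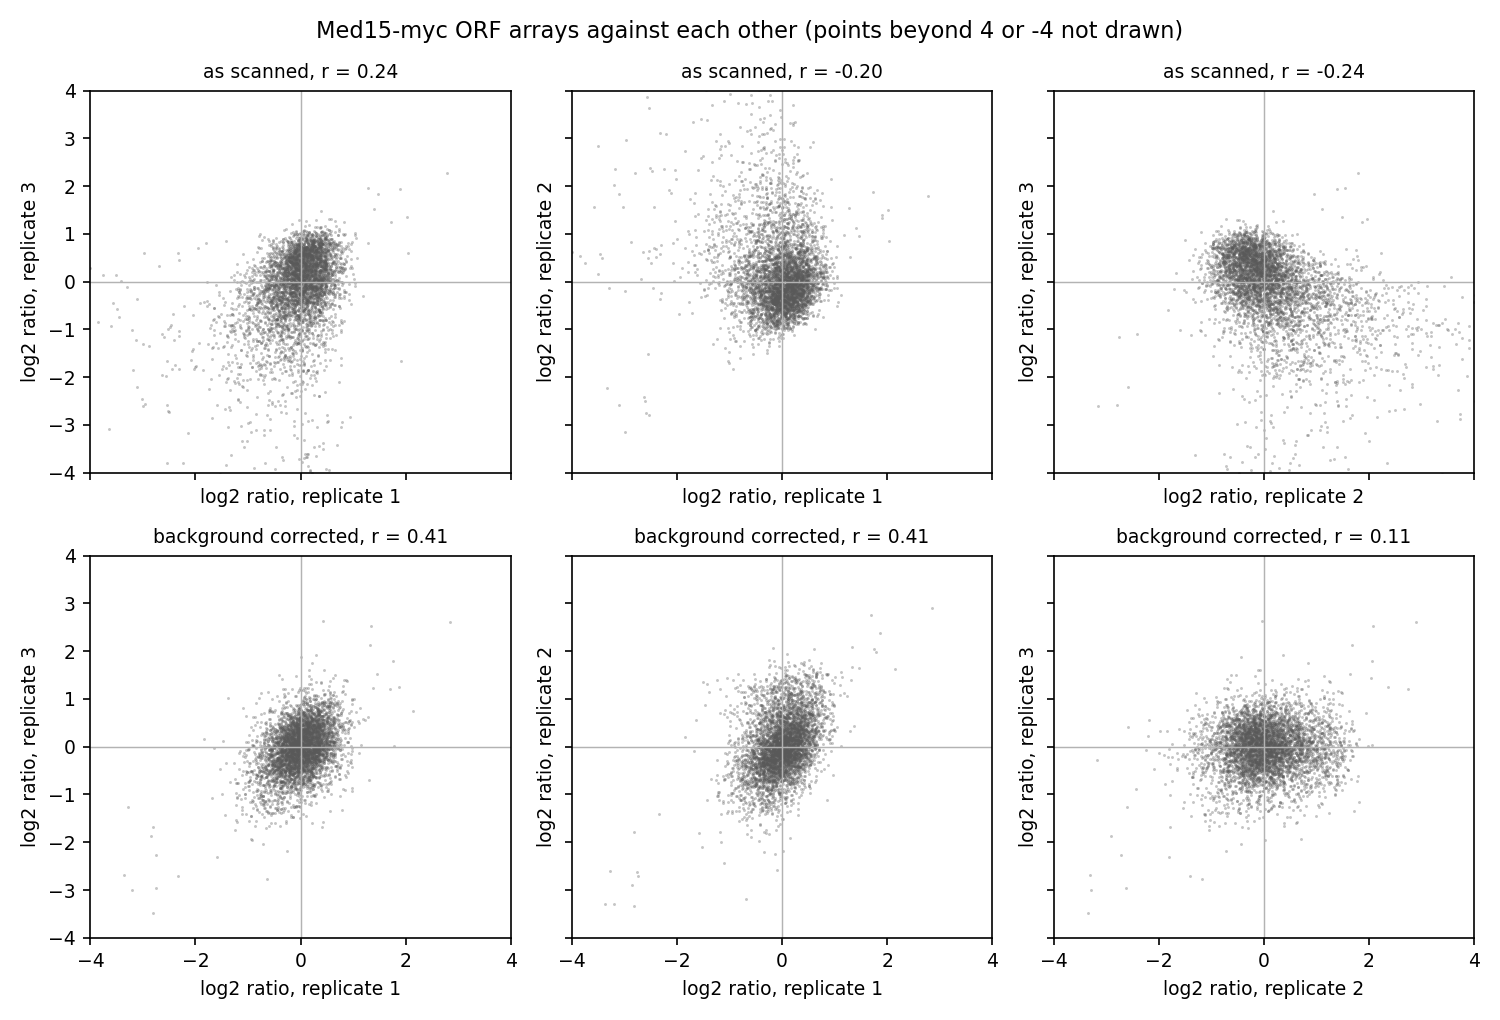
Log2 ratio of ChIP over input of each ORF feature on 1 Med15-myc array (x axis) against another (y axis), as scanned in the upper row and background corrected in the lower row; points beyond 4 or −4 are not drawn. The upper panels with replicate 2, the array with swapped dyes, slope downwards (r = −0.20 and −0.24), and all 3 lower panels slope upwards (r = 0.41, 0.41 and 0.11).

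The ratio followed the brightness of a feature, in opposite directions for the 2 dye orientations. When features were divided by input signal into 4 classes of equal size, the median ratio as scanned went from −0.34 in the dimmest to 0.06 in the brightest class in replicate 1 and from −0.69 to 0.31 in replicate 3. In replicate 2 it went from 1.00 to −0.49. Background correction brought the dimmest and brightest classes to −0.02 and −0.09 in replicate 1 and to −0.04 and −0.04 in replicate 3, whereas replicate 2 still stood at 0.61 and −0.15. Features of weak input signal therefore remain high in replicate 2 in all values below.

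**Figure D2:**
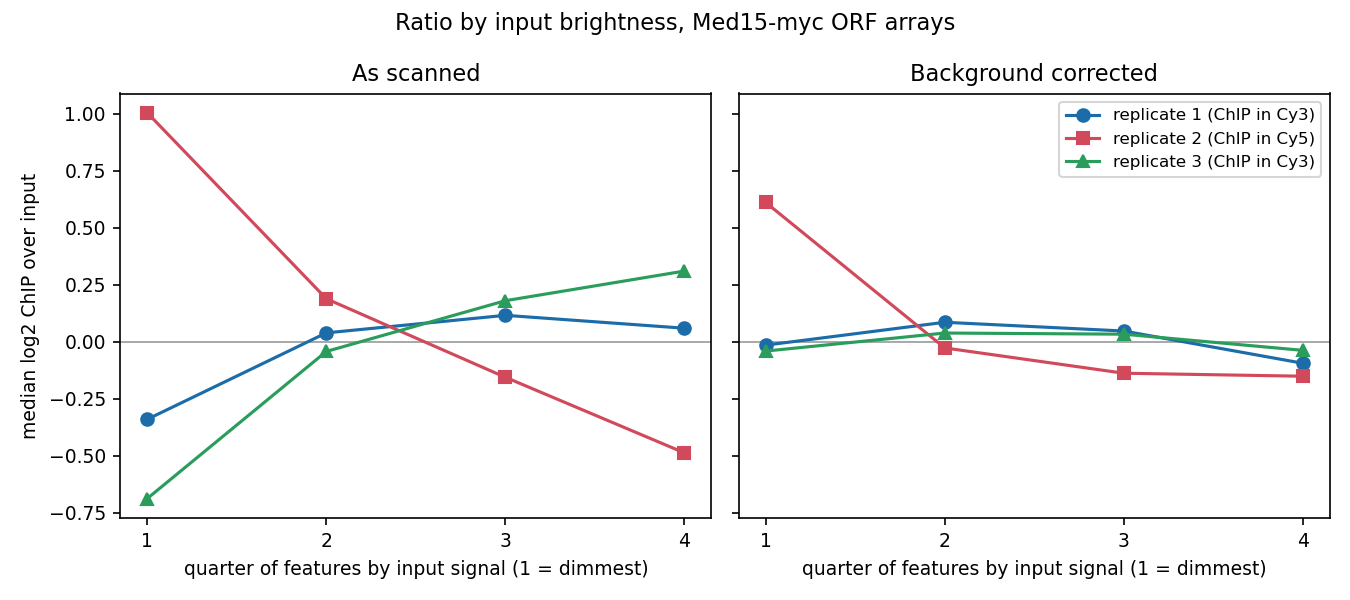
Median log2 ratio of ChIP over input (y axis) in 4 equal classes of the ORF features ordered by input signal (x axis, 1 = dimmest), for the 3 Med15-myc arrays, as scanned (left) and background corrected (right). As scanned, replicate 2 falls from 1.00 to −0.49 while replicate 3 climbs from −0.69 to 0.31; after correction replicates 1 and 3 stay between −0.09 and 0.09 and replicate 2 keeps 0.61 in the dimmest class.

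The ratios of single coding regions over the typical feature were tested with limma. The dye of the ChIP DNA was a term, so that both orientations weigh the same. Replicate 2, the only array with swapped dyes, therefore weighs as much as replicates 1 and 3 together. A mean given below for a feature over input is this fitted value. A feature high on replicate 2 thus gets a higher mean than a plain average of the 3 arrays gives. The spread of a single feature comes from replicates 1 and 3 alone. On the signals as scanned no feature of 4877 passed an adjusted p of 0.05 in either direction (0% called). At an unadjusted p under 0.05, 237 features were above and 73 below 0. All 3 arrays lay above 0 for 571 features (11.7%) and below 0 for 539 (11.1%), and 62 of the first and 63 of the second also had an unadjusted p under 0.05. On background-corrected signals limma called 307 of 4887 features higher (6.28%) and 292 lower (5.98%). That fit found no difference between features in their spread, so it used 1 standard error of 0.224 for every feature, and an adjusted p from it rests on the mean alone. Without the dye term it called 7 higher and 15 lower. With a plain mean and without replicate 1 it called 22 features, without replicate 2 it called 234 and without replicate 3 it called 8, of which 1 was higher. Of the 307 features called higher, 200 were above 0 on all 3 arrays, and of the 292 called lower 257 were below 0 on all 3. By input signal, 235 of the features called higher were in the dimmest class and 4 in the brightest, and of those called lower 29 and 107. Background-corrected values are given below as "corrected", and features are named by the largest values as scanned with 3 arrays on the same side of 0 and an unadjusted p under 0.05, none of which passes the adjusted threshold as scanned.

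The gene of the tagged protein stood at the level of the typical coding region. The med15 feature read −0.04, 0.51 and −0.55 as scanned on replicates 1, 2 and 3, and −0.05, 0.08 and −0.09 corrected. Its corrected mean was 0.00 ± 0.22 (standard error of the fit, limma, adjusted p = 0.998). The hrp1 feature read −0.10, −0.17 and 0.25 corrected, a mean of −0.05 (adjusted p = 0.942). For both genes the arrays lay on both sides of 0, and the sign of the mean depended on the setting.

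A small group of coding features stood well above the rest on all 3 arrays. It was led by prt2, the long noncoding RNA that is transcribed next to the phosphate transporter gene pho84 and that the array carries among its coding features. At prt2 the ChIP signal was 56308, 35027 and 29206 scanner units against an input of 7691, 5743 and 15860. The log2 ratio was 2.79, 1.80 and 2.27 as scanned and 2.85, 2.90 and 2.62 corrected. The 3 arrays lay close together after correction, although their dyes differ. The fitted value was 2.16 ± 0.26 as scanned (limma, unadjusted p = 0.00111, adjusted p = 0.646) and 2.82 corrected (adjusted p = 1.1e-32, and 0.000307 without the dye term). It was the 1 feature called higher under each of 6 ways of fitting the corrected values, namely with and without the dye term, with loess after the correction, and without each replicate in turn.

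Behind prt2 came a set of poorly characterised loci. The feature of mug114, a gene of the group named for upregulation in meiosis, read 1.72, 1.88 and 1.25 as scanned and 1.70, 2.75 and 1.20 corrected (mean 2.10, limma, adjusted p = 4.96e-18, 0.038 without the dye term). SPAP15E9.02c read 1.90, 1.39 and 1.94 as scanned and 1.75, 2.05 and 1.80 corrected (mean 1.92, adjusted p = 5.27e-15, 0.00471 without the dye term). Replicate 2 was the highest at both loci once corrected, and the lowest array still lay at 1.20 or above. SPAC56F8.13 read 1.47, 0.95 and 1.83 as scanned and 1.46, 1.65 and 1.53 corrected, the narrowest range of the group (mean 1.57, adjusted p = 6.56e-10, 0.0124 without the dye term). The feature of mug116 was less even, with 1.12, 1.56 and 0.49 corrected (mean 1.18, adjusted p = 1.66e-05), and its input signal lay in the dimmest class.

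Genes with known functions were also among the highest. The feature of pof9, which encodes an F-box protein of the kind that brings substrates to ubiquitin ligases, read 2.02, 1.5 and 1.36 as scanned and 1.87, 2.37 and 1.25 corrected (mean 1.97, limma, adjusted p = 8.65e-16, 0.0168 without the dye term). At taf4, whose product is a subunit of the general transcription factor TFIID, the values were 1.28, 1.54 and 1.95 as scanned and 1.34, 2.08 and 2.52 corrected (mean 2.01, adjusted p = 2.02e-16, 0.0128 without the dye term). Every array was well above 0 at both genes. The feature of srb4, which encodes the Mediator head subunit also called Med17, was less even, with 0.54, 1.97 and 1.31 as scanned and 0.61, 2.04 and 1.43 corrected (mean 1.53, adjusted p = 2.05e-09, 0.109 without the dye term). Its input signal was in the dimmest class, where replicate 2 reads high. A further feature, listed under a name in the form of a date and therefore not assigned to a gene, read 1.33, 1.68 and 2.13 corrected (mean 1.70, adjusted p = 9.55e-12).

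The other 6 of the 15 highest features were closer to the bulk. The corrected mean was 1.16 for tma19, the gene of the translationally controlled tumour protein homologue, with 0.98, 1.33 and 1.00 on the arrays (limma, adjusted p = 2.52e-05). For spe2, the S-adenosylmethionine decarboxylase gene of polyamine synthesis, the corrected values were 0.72, 1.56 and 0.35. For dsc2, which encodes a subunit of the Golgi Dsc E3 ligase, they were 0.64, 1.5 and 0.88. At each of these 3 genes replicate 2 was the highest array. The same held for arz1 (0.79 as the corrected mean) and for kgd2, a subunit gene of 2-oxoglutarate dehydrogenase (0.64, 1.47 and 1.14, mean 1.18). At ppr4, a gene of a pentatricopeptide repeat protein of mitochondria, replicate 3 was the highest (0.56, 1.24 and 1.37, mean 1.10). Both ppr4 and kgd2 had an input signal under 1.5 times the local background on at least 1 array. Of the 15 highest features, those of srb4, ppr4, mug116, arz1, dsc2 and kgd2 lay in the dimmest class of input signal.

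The lowest coding features were those of the mitochondrial genome, which lies outside the nucleus. The feature of cob, the cytochrome b gene, read −3.11, −2.59 and −2.20 as scanned and −3.36, −3.30 and −2.68 corrected (mean −3.16, limma, adjusted p = 3.36e-41). The features of cox1 and cox2, which encode cytochrome oxidase subunits, read −2.85, −2.90 and −1.87 (mean −2.63, adjusted p = 1.31e-28) and −2.82, −1.78 and −1.68 corrected (mean −2.01, adjusted p = 1.76e-16). The mitochondrial reading frame urf read −2.75, −2.71 and −2.27 (mean −2.61, adjusted p = 3.5e-28). Every array lay far below 0 at all 4 of these features. The input signal was at the scanner maximum for cox1 on replicates 1 and 3 and for cox2 on replicates 1 and 2, so these ratios are upper bounds there. On replicate 3 the ChIP signal of cox2 was 0 and the feature has no ratio as scanned. The ChIP signal of urf on that array was 237 over a local background of 175. The corrected values of cox2 and urf on replicate 3 thus rest on a ChIP signal near the floor, where the normexp offset weighs heavily. With them went 4 features that the files name after a sequence entry and not after a gene, at −2.44, −2.74, −3.19 and −3.24 corrected. The input was at the scanner maximum on replicate 1 for the feature at −3.19 and on replicates 1 and 3 for the feature at −3.24, so these means are upper bounds too. These 4 together with cob, cox1 and urf were the 7 features called lower under all 6 ways of fitting the corrected values, and cox2 was called under 5. So were a further feature named after that sequence entry (−2.34, −1.40 and −2.70 corrected, mean −1.96) and the nuclear SPAC23C11.07 (−1.59, −1.81 and −2.32 corrected, mean −1.88). The other low features of the named set were nuclear and less extreme, with corrected means of −1.54 at SPCC191.04c, −1.71 at SPBC1A4.09c and −1.12 at the13.

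**Figure D3:**
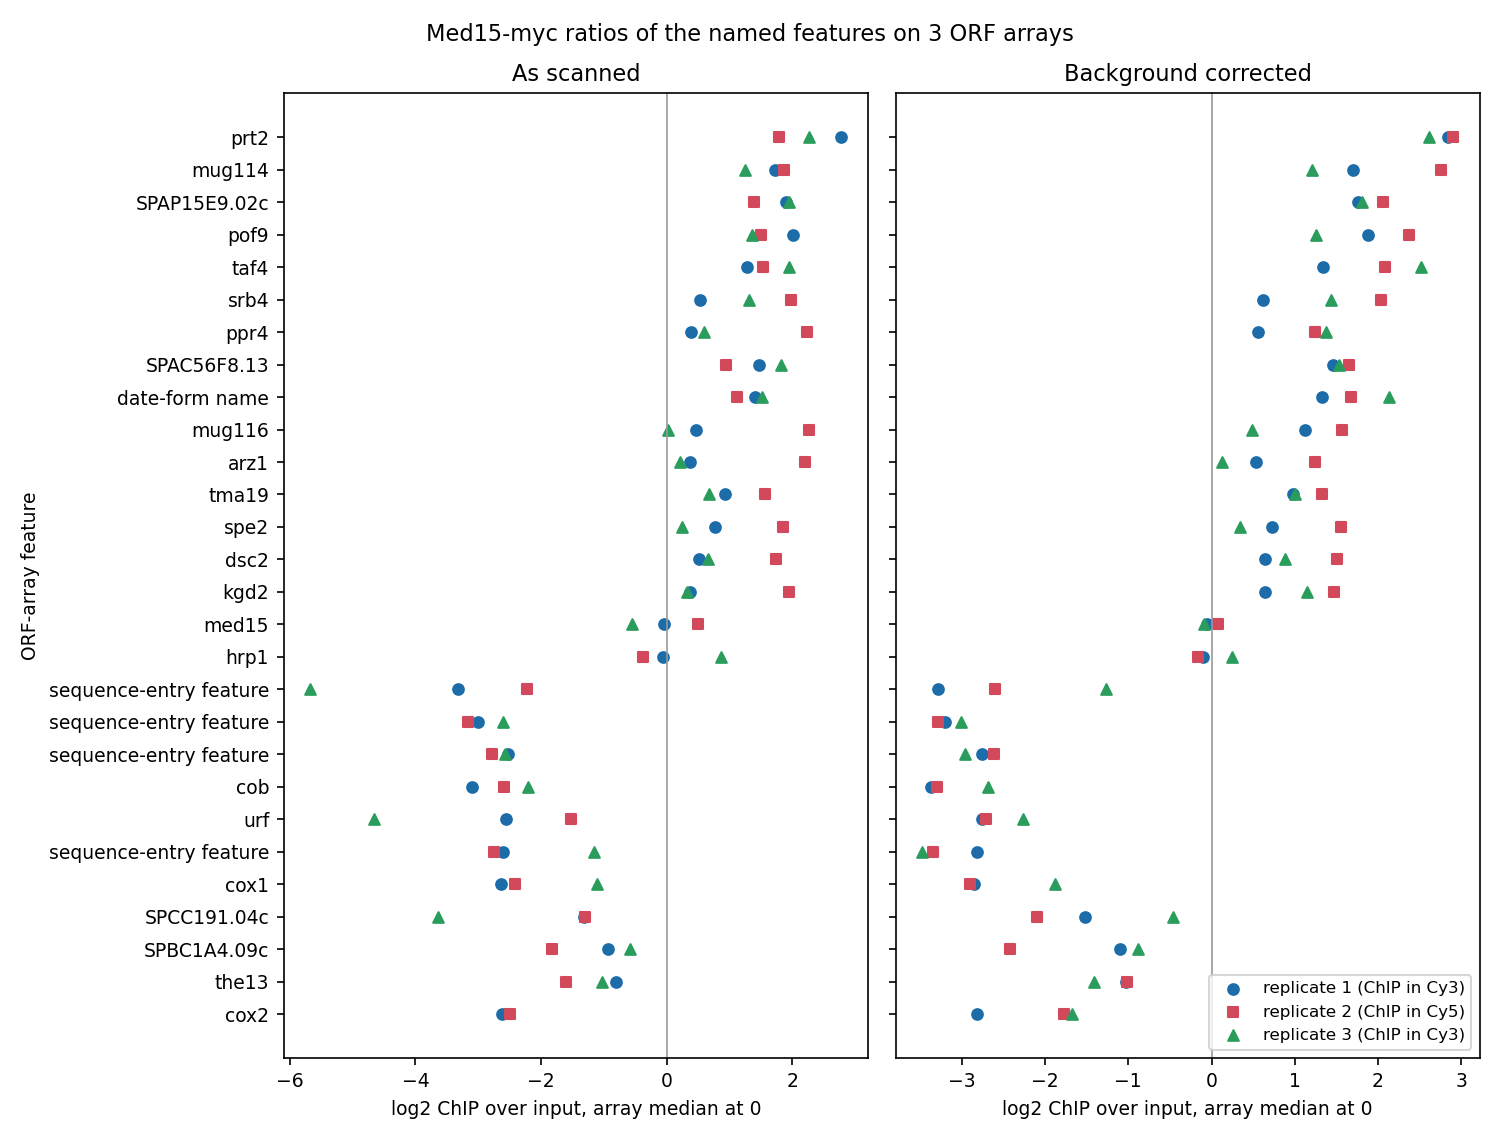
Log2 ratio of ChIP over input (x axis) of each named ORF feature (y axis, ordered by the fitted value as scanned) on the 3 Med15-myc arrays, as scanned (left) and background corrected (right); 1 point is 1 array and cox2 has no value on replicate 3 as scanned. The 3 corrected points of prt2 lie between 2.62 and 2.90, those of med15 and hrp1 lie on both sides of 0, and those of cob lie between −3.36 and −2.68.

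The neighbours of the highest features were seldom called higher themselves, as was true of features in general. Of 26 measured neighbours of the 15 highest features, 18 were above 0 and their median was 0.19 corrected. No neighbour was assigned to SPAP15E9.02c or to the feature with a date-form name, so these are not covered. Over 4593 features with a neighbour, 2361 were above 0, the median was 0.01 and 288 were called higher. The limma fit on corrected values called 1 of the 26 higher, ntr1 next to dsc2, with 0.91, 1.11 and 0.50 (mean 0.90, adjusted p = 0.0017). It called nsk1, the other neighbour of dsc2, lower, with −1.03, −0.58 and −0.52 (mean −0.68, adjusted p = 0.0274). The neighbours of prt2 were pho84, at −0.28, −0.93 and 0.03 (mean −0.53, adjusted p = 0.103), and SPBC8E4.03, at −0.02, 0.29 and 0.59 (mean 0.29). Neither gene was above 0 on all 3 arrays. Across all adjacent pairs of features the corrected values correlated with r = 0.148 (4589 pairs).

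Genes of the transcription machinery did not stand apart from the other coding regions as groups. Of 21 Mediator subunit genes, 13 were above 0 corrected with a median of 0.07, beside 2498 of 4887 and 0.01 over all features. The limma fit called 3 higher and 3 lower, beside 6.28% and 5.98% of all features. Besides srb4 these were srb6, the gene of head subunit Med22 (0.46, 1.35 and 0.12, mean 0.82, adjusted p = 0.00516) and rox3, the gene of head subunit Med19 (0.24, 0.96 and 0.36, mean 0.63, adjusted p = 0.0426). On the low side were med31 of the middle module (−0.74, −0.87 and −0.98, mean −0.87, adjusted p = 0.00282), srb10, the kinase of the kinase module (−0.77, −0.63 and −0.74, mean −0.70, adjusted p = 0.0221), and med8 of the head (−0.19, −1.39 and 0.36, mean −0.65, adjusted p = 0.0344). The 3 arrays lay closely together at med31 and srb10 and on both sides of 0 at med8. Of 39 genes of RNA polymerase II and the general transcription factors, 24 were above 0 with a median of 0.05, and taf4, the polymerase subunit gene rpb5 (0.67) and the elongation factor gene tfs1 (0.65) were called higher, rpb8 (−0.76) and rpb11 (−0.62) lower. Of 11 chromatin remodeller ATPase genes 6 were above 0, with a median of 0.03, and snf22 was called higher from −0.06, 1.34 and 0.20 (mean 0.71, adjusted p = 0.02), a value that replicate 2 carries.

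Ribosomal protein genes were the large group that lay above the typical coding region. Of 71 features of large-subunit genes 59 were above 0 corrected, with a median of 0.41, 19 were called higher and none of the 71 was called lower. Of 55 features of small-subunit genes 46 were above 0, with a median of 0.32, and 9 were called higher and 0 lower. As scanned the counts above 0 were 53 and 46, with medians of 0.31 and 0.28, where limma called 0 of these 126 features. All 3 arrays were above 0 as scanned for 20 and 18 features and below 0 for 2 and 2. The corrected medians on replicates 1, 2 and 3 were 0.44, 0.37 and 0.07 for the large subunit and 0.39, 0.36 and 0.09 for the small one, so replicate 3 was the lowest on both lists. Called members with 3 similar arrays, picked after their values were seen, were rpl13a-1 (0.99, 0.87 and 0.98, mean 0.93, limma, adjusted p = 0.00124), rpl1202 (0.80, 0.59 and 0.95) and rpl7a (0.79, 0.51 and 1.14), and the highest were rpl6 (1.14, 1.47 and 0.03, mean 1.03) and rps1802 (0.08, 1.41 and 1.17, mean 1.02). Of the large-subunit features 26 of 71 (36.6%) lay in the dimmest class of input signal, and 20 of 55 of the small-subunit ones (36.4%), beside 25% of all features. Outside that class 36 of 45 and 27 of 35 were above 0, with medians of 0.33 and 0.23 and 6 and 1 called higher, beside 1584 of 3665, −0.05 and 72 called higher over all features outside it. Many ribosomal proteins are encoded by near-identical gene copies whose DNA cross-hybridises, so single members are uncertain. The large-subunit median was above 0 under all 25 settings tried, and the small-subunit one under 24, the exception being the authors' deposited value table of the ChIP channel alone, where it was −0.21.

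Metabolic and regulatory lists were mixed. Of 10 glycolysis genes 8 were above 0 corrected with a median of 0.14, beside 2498 of 4887 and 0.01 over all features. The phosphoglycerate mutase gene gpm1 (1.10, 1.30 and 0.53, mean 1.06, limma, adjusted p = 0.00019) and the triosephosphate isomerase gene tpi1 (0.50, 0.71 and 0.86, mean 0.70, adjusted p = 0.0219) were called higher, each above 0 on all 3 arrays. The phosphofructokinase gene pfk1 was called lower from −0.02, −1.43 and 0.29. Over all features 6.28% were called higher and 5.98% lower. Of the 10 glycolysis features 5 lay in the dimmest class of input signal, where replicate 2 reads high. Outside that class 3 of 5 were above 0, with 0 called higher and 1 called lower. Of 11 genes of fermentation, glycerol and malate 7 were above 0, with a median of 0.32, and 1 was called higher, the pyruvate decarboxylase gene pdc101 (0.52, 1.45 and −0.34). Of 6 phosphate features prt2 alone was above 0. The others were the acid phosphatase gene pho1 (−0.32, −0.27 and −0.35, mean −0.30, adjusted p = 0.420), pho84, tgp1, and pho7 and csk1, the genes of a transcription factor and of a kinase linked to the phosphate response, which were called lower (−0.70 and −0.67). The deposited values of the ChIP channel alone put the medians of the glycolysis and the fermentation list below 0 (−0.32 and −0.27) and that of the phosphate list above 0 (1.27).

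Histone genes, whose products form the nucleosome core, had a median of 0.30 corrected over 10 features, with 6 above 0, and none passed the limma test in either direction. As scanned the median was −0.07. All 12 Tf2 retrotransposon features were above 0 corrected, with a median of 0.31, but as scanned 8 were, and the corrected medians on the arrays were 0.01, 0.72 and −0.12, so the list is high on replicate 2 alone. These copies are near-identical. Of 80 genes named mug for meiotic upregulation, 35 were above 0 with a median of −0.09, 5 were called higher, with mug114, mug116 and mug143 (0.75, 1.76 and 0.07, mean 1.09) at the top, and 7 were called lower, with mug130 (−1.03) and mug30 (−0.89) at the bottom. Over all features 6.28% were called higher and 5.98% lower, close to the shares of the mug genes. Among genes of cell separation the endoglucanase gene eng1 was called lower (−0.63, −1.17 and −2.78, mean −1.44). The 18 proteasome, 16 stress and heat shock, 10 hexose transporter, 6 thiamine, 10 iron, 10 flocculin and 12 plasma membrane and cell wall features had medians between −0.17 and 0.10 and at most 3 calls each.

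Set against histone H3 on the same kind of array, several of the features highest in the Med15-myc precipitate were low in the H3 precipitates. The Med15-myc values were compared with the mean of the Δmed15 and Δhrp1 strains in 1 limma fit with dye, in which strain and antibody cannot be told apart. As scanned the fit called 0 of 4857 features in either direction (0%), with 271 higher and 42 lower at an unadjusted p under 0.05. Corrected, it called 166 of 4887 higher in Med15-myc (3.4%) and 4 lower (0.0818%), and for 141 and 4 of them the 3 Med15-myc arrays did not overlap with the 5 H3 arrays. Over all features 5.3% were higher and 2.66% lower without overlap. Without Med15-myc replicate 1 the fit called 78 features and without replicate 2 it called 59. Of the 307 features called higher over input 62 were also called higher than H3, and of the 292 called lower 4 were called lower.

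The largest difference from H3 was at mug114. Its corrected H3 values were −3.11 and −2.84 in Δmed15 and −3.53, −4.42 and −2.44 in Δhrp1, against 1.70, 2.75 and 1.20 for Med15-myc, a difference of 5.18 ± 0.34 (limma, adjusted p = 1.59e-06). At SPAP15E9.02c H3 read −2.35 and −2.81 in Δmed15 and −4.01, −4.0 and −1.44 in Δhrp1, and the difference was 4.83 ± 0.37 (adjusted p = 5.18e-06). At prt2 H3 read −1.35, −1.64, −1.87, −2.35 and −0.98 in the same order, and the difference was 4.45 ± 0.27 (adjusted p = 1.41e-06). At all 3 loci every H3 array was below 0 and every Med15-myc array above it. SPAC56F8.13 behaved alike (4.31 ± 0.29, adjusted p = 1.59e-06), and so did its neighbour mug115, which read 0.96, 0.07 and 0.75 for Med15-myc and −1.74 to −3.84 for H3 (2.94 ± 0.36). SPAC1F8.08, which is not among the 15 highest features as scanned, read 2.14, 1.63 and 0.74 against −3.20 to −1.93 for H3 (4.37 ± 0.33, adjusted p = 4.61e-06).

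The remaining features with the largest differences were SPAC17A2.11 (3.62), SPAC27E2.11c (3.14), mug116 (3.04) and a feature named intergenic3 whose input signal was dim (3.83). At taf4 the H3 values of 0.58, 0.01, −0.15, −0.27 and −0.52 lay on both sides of 0, and Med15-myc exceeded them by 2.00 ± 0.30 (limma, adjusted p = 0.00184). H3 was likewise near 0 at the feature with a date-form name (1.63 ± 0.27, adjusted p = 0.00311) and ran from −2.16 to −0.27 at pof9 (2.60 ± 0.33, adjusted p = 0.00055). The srb4 feature did not pass (0.94 ± 0.33, adjusted p = 0.189). Features taken from the 15 highest were picked on these same Med15-myc arrays, which by itself favours a positive difference from H3. The med15 and hrp1 features differed from H3 by −0.16 ± 0.28 and −0.33 ± 0.30 and did not pass, and each of these genes is deleted in 1 of the H3 strains. The 4 features lower in Med15-myc were SPAPB1A11.02 (−1.09 ± 0.27, adjusted p = 0.0364), the autophagy gene atg2402 (−1.07), SPAC22A12.17c (−1.05) and SPAC4H3.03c (−1.05). The mean H3 value of the 2 strains was below −1 at 6 of the 15 highest Med15-myc features (40%), at 33 of the 307 called higher (10.7%), at 48 of the 292 called lower (16.4%) and at 194 of all 4887 (3.97%).

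**Figure D4:**
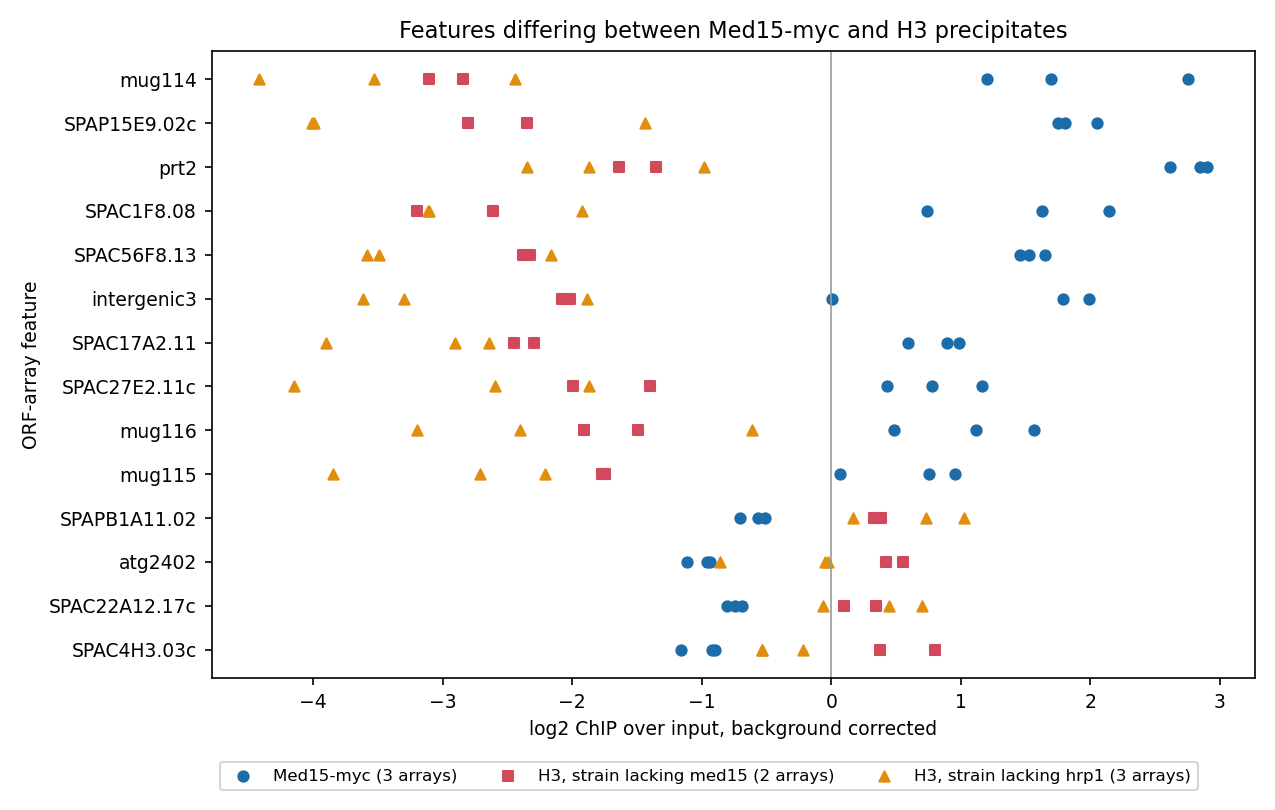
Background-corrected log2 ratio of ChIP over input (x axis) of 14 ORF features (y axis). Points are 3 Med15-myc arrays, 2 H3 arrays of the strain lacking med15 and 3 H3 arrays of the strain lacking hrp1. Shown are the 10 largest differences called higher in Med15-myc without overlap of the groups, and the 4 features called lower. At the upper 10 features every Med15-myc point lies to the right of every H3 point, with prt2 at 2.62 to 2.90 against −2.35 to −0.98, and at the lower 4 every Med15-myc point lies to the left.

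Ribosomal protein genes and mitochondrial features had low H3 as well. The H3 median was −0.86 over the large-subunit and −1.0 over the small-subunit features, the difference of Med15-myc from H3 had medians of 1.26 and 1.30, and 41 of 71 and 37 of 55 features were called higher in Med15-myc, beside 166 of 4887 and a median of −0.01 over all features. All 55 small-subunit features and 69 of the 71 large-subunit ones were above 0 in this difference. Histone genes had an H3 median of −0.80 and a median difference of 0.90, with 2 of 10 called. The mitochondrial features had an H3 median of −4.03. Because the Med15-myc input was at the scanner maximum for cox1 and cox2, no difference from H3 is given for them. Across all 4887 features the Med15-myc and H3 values correlated positively, with r = 0.299 and a rank correlation of 0.323, which is across features and shares the probes.

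The measured ratios of coding and intergenic features of the same gene hardly correlated in the Med15-myc strain. IGR features are listed under gene names, but whether one lies before or after its gene is not stated in the files. Each array has its own median feature at 0. A difference between IGR and ORF therefore compares how a feature stands among its own array type, not the amount of signal. Higher and lower over IGR are meant in this sense below. Over 4495 genes with a feature on both array types the corrected means correlated with r = 0.059 and a rank correlation of 0.034. The scanner software flagged 17.7%, 57.4% and 70.3% of feature spots on IGR replicates 1, 2 and 3, against 3.24%, 26.9% and 36.2% on the ORF arrays. The corrected ORF arrays correlated among themselves with r of only 0.11 to 0.41. How far noise lowers the correlation between array types was not tested. Of 287 genes with a coding feature called higher, 160 (55.7%) were above 0 on the IGR arrays, with a median of 0.08, and of 260 called lower 121 (46.5%) were, with a median of −0.05. Over all genes 2302 (51.2%) were above 0. In the limma fit of IGR minus ORF, 0 of 4465 genes were called as scanned (0%), with 250 higher and 69 lower over IGR at an unadjusted p under 0.05. Corrected, 198 of 4495 were higher over IGR (4.4%) and 189 lower (4.2%). Without any 1 of the 6 arrays and with no dye term the fit called 2 to 20 genes (20, 5 and 2 without ORF replicate 1, 2 and 3 and 2, 13 and 7 without IGR replicate 1, 2 and 3).

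Among the highest coding features, prt2 and SPAP15E9.02c were also high on the intergenic side, and the coding feature exceeded the intergenic one at 5 named genes. These 5 genes were picked for high values on the same ORF arrays, which by itself favours a coding excess. Their adjusted p-values below are therefore no independent evidence of such an excess. At prt2 the IGR values were 3.37, 2.36 and 2.16 and the difference was −0.26 ± 0.38 (limma, adjusted p = 0.713). At SPAP15E9.02c they were 2.84, 3.23 and 1.83 and the difference was 0.87 ± 0.37 (adjusted p = 0.136). SPAC56F8.13 (1.46, 0.98 and 0.83), mug116 (1.46, 1.10 and 0.43) and dsc2 (0.62, 1.13 and 0.47) were also above 0 on all 3 IGR arrays, with differences of −0.51 (adjusted p = 0.389), −0.16 (adjusted p = 0.832) and −0.30 (adjusted p = 0.638). None of these 5 differences passed, which at this standard error does not show that both sides are equal. At taf4 the IGR feature read 0.03, 0.75 and −0.54, lower than the coding one by 1.76 ± 0.38 (−1.76, adjusted p = 0.00539). The coding feature was also higher at tma19 (−1.71, adjusted p = 0.00665), kgd2 (−1.95, adjusted p = 0.00214), mug114 (−1.25 ± 0.36, adjusted p = 0.0288) and pof9 (−1.19 ± 0.36, adjusted p = 0.0353). The IGR values of mug114 (1.22, 0.69 and 0.81) and pof9 (0.93, 0.57 and 1.02) were nevertheless all above 0. At med15 itself the IGR feature read 0.70, 2.39 and 1.48 and exceeded the coding feature by 1.74 ± 0.37 (adjusted p = 0.00447), with a dim input signal on the IGR arrays.

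At SPAC17A2.10c and mae2, the genes with the largest excess of the intergenic over the coding feature, the coding feature lay below the typical level on at least 2 of the 3 arrays. SPAC17A2.10c read −0.68, −0.80 and 0.23 over its coding feature and 2.83, 3.59 and 2.61 over the intergenic one (3.67 ± 0.37, limma, adjusted p = 1.94e-07). The malic enzyme gene mae2 read −0.50, −0.21 and −0.73 against 2.86, 3.26 and 1.67 (3.18 ± 0.38, adjusted p = 4.54e-06). The histone genes hhf1 and hta1 differed by 2.39 and 2.25 and the sulfate adenylyltransferase gene sua1 by 2.24. SPAC4H3.03c, SPAC23C11.07, SPAC27E2.11c and SPCC569.05c were also among the 10 largest, with differences of 2.11 to 2.24. The coding feature of SPAC27E2.11c was itself above 0 on all 3 arrays, at 0.77, 1.16 and 0.43. In the other direction SPBC3H7.08c differed most (−2.48), from coding values of 0.12, 1.18 and 0.06, followed by the mitochondrial ribosomal protein gene mrpl28 (−2.23), skp1 of the SCF ubiquitin ligase (−1.97), kgd2, the zinc transporter gene zrg17 (−1.94) and the import receptor gene mtr10 (−1.93). Replicate 2 was the highest coding array at SPBC3H7.08c, mrpl28, kgd2, zrg17 and mtr10.

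The lists differed in how their coding and intergenic features stood against the typical feature of each array type. Of 10 histone genes 9 were higher over the intergenic than over the coding feature, with medians of 1.11 and 0.30, and hta1, htb1, hhf1 and hhf2 were called. Of 6 phosphate genes 5 were higher over IGR, with medians of 1.16 and −0.42, and pho1, pho84, pho7 and csk1 were called. At pho84 the coding values of −0.28, −0.93 and 0.03 stood against 1.95, 0.60 and 1.58, and at pho1 those of −0.32, −0.27 and −0.35 against 1.26, 1.51 and 0.92. Of 9 glycolysis genes 7 were higher over IGR, with medians of 0.92 and 0.14, and pfk1 and pgk1 were called. Ribosomal protein genes went the other way. Of 62 large-subunit genes 16 were higher over IGR, with medians of −0.12 over IGR and 0.40 over coding features, and 10 were called lower over IGR, and of 52 small-subunit genes 19 were higher, with 5 called lower and 1, rps1602, called higher. At rpl29 the coding values were 1.19, 1.11 and 0.58 and the intergenic ones −0.32, −1.06 and −0.37 (−1.70 ± 0.36). Over all 4495 genes 2244 were higher over IGR, the median difference was 0.00, and 198 (4.4%) were called higher and 189 (4.2%) lower over IGR. Of 16 Mediator genes 6 were higher over IGR and med15 alone was called.

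**Figure D5:**
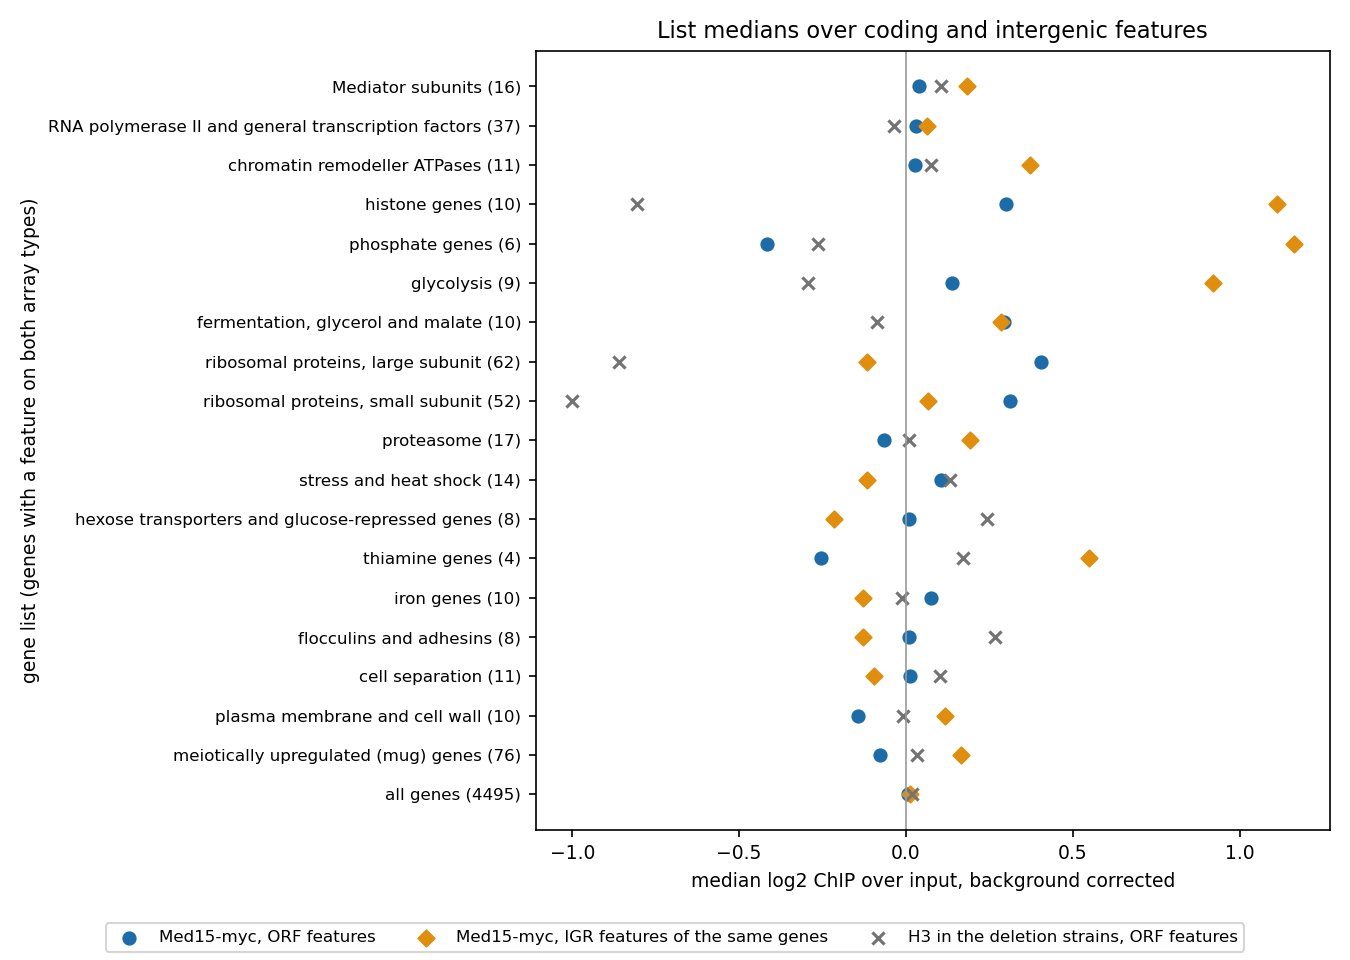
Median background-corrected log2 ratio of ChIP over input (x axis) of each gene list with 4 or more genes on both array types (y axis, number of genes in brackets), for Med15-myc on ORF features (circles) and IGR features (diamonds) of these genes and for H3 in the 2 deletion strains on the ORF features of the whole list (crosses). Histone, phosphate and glycolysis genes have IGR medians of 1.11, 1.16 and 0.92 to the right of their ORF medians, and for the large-subunit ribosomal protein genes the ORF median of 0.40 lies to the right of the IGR median of −0.12 and the H3 median of −0.86.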

How the data were processed

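The members and the gene lists were chosen with earlier results of these data known. Per the file headers, the deposited scanner tables give the median intensity of each spot and of its local background for both dyes, with no correction, and the dye of the ChIP DNA is the one the labels give. A value table that the authors deposited holds log2 values. Set against the scanner tables, its columns correlated with the background-subtracted ChIP channel with r of 0.995 to 0.996, and 99.6% to 99.7% of spots lay within 0.02 of a constant, so it holds no division by input. Its medians were 0.16, 0.01 and 0.20, and it was used as an alternative. No header or label states its scale or software, and 17 per-sample columns were not used.

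Ratios of ChIP over input intensity were taken per spot, spots with a signal of 0 were treated as missing (chosen after seeing the data), spots of a name were averaged, control names were left out and the median of each array was set to 0. The limma package, version 3.58.1, under R 4.3.3 (lmFit and eBayes, intercept plus dye) gave two-sided p-values, adjusted by Benjamini-Hochberg over all features with a threshold of 0.05, and ± marks a standard error from the fit. Alternatives were normexp background correction with an offset of 50, loess (span 0.3), no dye term, subtraction of local background, single spots, scaling, leaving out features with an input under 1.5 times background, and leaving out each replicate. Combinations of normexp with other choices, and flagged spots left out, were added after seeing the data. Tables and figures were made with Python 3.11.15, pandas 2.3.3 and matplotlib 3.10.9, and the fits were tested on simulated data.

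Named features are med15 and hrp1, then the 15 highest and 10 lowest values with the arrays on the same side of 0 and an unadjusted p under 0.05, the 10 largest called differences each way from H3 and between array types without overlap, extreme or called list members, and 9 features that an earlier account of these data named. Not every feature that the rule selects is reported here. Of 4887 ORF features, 4609 matched 1 gene of the table of assembly ASM294v3, 53 several and 225 none. Of 4961 IGR features these were 4685, 66 and 210. No header or label names the genome build behind the arrays, so coordinates and sequences are left out.

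Replicate numbers are shared between groups. Same-numbered ORF and IGR samples deviated from their group means with correlations of 0.00 to 0.02, and Med15-myc and H3 samples with −0.42 to 0.37. ORF and IGR arrays carry different probes, so their correlation cannot show whether samples are paired. Same-numbered ORF and IGR samples had the same dye orientation and similar local backgrounds (ChIP channel 93 and 88, 4984 and 4880.5, 357 and 358). Whether they shared a preparation or a scan was not tested. The main fits used no pairing and treat these samples as independent.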

Additional observations from a re-analysis of the deposited data

Results flagged for a closer look

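Control spots of several names, outside the main measurement, gave signals on the Med15-myc ORF arrays above those on all 5 H3 ORF arrays. The scale is the background-corrected log2 of ChIP over input. Luciferase control spots had medians of 3.77, 5.17 and 4.47 on replicates 1, 2 and 3, against −1.27 to 2.83 on the H3 arrays. Their ChIP signal was 56221, 45546 and 55957 scanner units over 64 spots, with 14, 4 and 8 of them saturated, against 5 to 3268.5 on the H3 arrays. Spots named KanMX- had medians of 2.54, 2.90 and 5.45, against −1.08 to −0.25 on the H3 arrays, with a ChIP signal of 40618, 39478 and 48877 over 2 spots against 1878 to 4880. Spots named E coli 1 had medians of 1.82, 1.80 and 2.09, against −1.14 to 1.15, with a ChIP signal of 6455, 9228 and 3896 against 33 to 1935. Spots named E coli 2 (1.87, 1.75 and 1.85, against up to 1.13) and E coli 3 (1.96, 1.85 and 1.90, against up to 1.19) were likewise above. So were the Luciferase dilutions 2x, 4x, 16x and 32x. Not every control name was above the H3 arrays in this way. On replicate 3 the Luciferase dilution 8x read 0.25, against up to 2.32 on the H3 arrays, and dilution 1x read 2.61, against up to 2.69. The LacZ, LexA, Gal4, Pho4, Buffer and empty spots were not above all 5 H3 arrays on all 3 Med15-myc arrays. What DNA gave these signals was not tested. Empty spots read near the local background in the ChIP channel on the 3 arrays, with 93.75 over 79, 4420.5 over 4282 and 162.25 over 174.25. The control names were left out of every comparison above.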

How the results depend on the processing

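The counts of calls over input depended on the treatment of background. From 0 as scanned, limma called 599 features after normexp (22 without the dye term, and 22, 234 and 8 without replicate 1, 2 and 3), 577 with dim features also left out (29, 264 and 18), 396 with flagged spots also left out and 444 with loess after it. Without normexp it called 218 after loess, 84 with dim features left out, 51 with flagged spots left out and 1116 on the deposited values. The count stayed at 0 without the dye term, with local background subtracted, with single spots, with scaling, with zeros set to 1 and without each replicate. Against H3, 0 became 170 after normexp, 299 after loess, and 0 to 8 as scanned without 1 sample. With normexp it was 78, 59 and 131 without Med15-myc replicate 1, 2 and 3, 124 and 128 without a Δmed15 sample, 194, 135 and 226 without a Δhrp1 sample, and 162 and 166 with the H3 samples of Δmed15 or Δhrp1 alone. For IGR minus ORF, 0 became 152 after loess and 387 after normexp (20, 5 and 2 without an ORF replicate, 2, 13 and 7 without an IGR replicate). The replicate number as a block, which the labels do not tie to a shared preparation, gave 0 and 0 as scanned. With normexp it gave 170 against H3 and 478 for IGR minus ORF. The mean correlation between arrays was −0.07 as scanned, 0.31 after normexp and 0.67 on the deposited values. Of 21 lists, 8 had a median above 0 as scanned, 13 after normexp with or without the dye term (13, 11 and 14 without replicate 1, 2 and 3), 13 on the deposited values and 12 to 14 as scanned without 1 replicate. The value of med15 over input turned to −0.027 without the dye term (−0.023 with normexp), −0.11 with the first spot, −0.41 on the deposited values, and ran from −0.29 to 0.24 as scanned without 1 replicate (−0.0090 and −0.072 with normexp without replicates 1 and 2, dim features kept or left out). That of hrp1 turned to −0.045 with normexp, dim features kept or left out, −0.0054 without the dye term as well, −0.037 with flagged spots left out, −0.056 with loess, and −0.13 without replicate 3. As scanned it turned to −0.061 with subtraction, −0.054 with the first spot and −0.019 with scaling, and ran from −0.22 to 0.41 without 1 replicate. The deposited values turned ppr4 (−0.61), mug116 (−0.55), arz1 (−0.59), dsc2 (−0.041), kgd2 (−0.35), cox1 (0.12), the13 (0.85) and a feature named after a sequence entry (0.040). For IGR minus ORF as scanned without 1 sample, SPAC23C11.07 ran from −1.22 to 1.28 (−0.30 and −0.048 without ORF replicate 1 and IGR replicate 3), SPBC3H7.08c from −2.02 to 0.97, mrpl28 from −1.66 to 0.58 and mtr10 from −0.81 to 0.29. The cause of these changes was not tested. Signal over background limits the dimmest features, and 3 arrays with 1 swapped dye leave 1 degree of freedom for each feature.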
